A study of Mus musculus with 6 samples.

Results

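The serpin family of serine protease inhibitors was followed through the transcriptomes of J110 and SSM3 cells, a pair of mouse mammary tumour lines. Members were chosen by gene symbol, as every protein-coding gene named Serpin with a clade letter and number, which gave 61 of the 52636 genes in the count table. The family was singled out with results of these data known, in particular for Serpinb6b, which had counts only in J110, so Serpinb6b is described here without a test. J110 cells come from a mammary tumour of mice that carry AIB1 cDNA under the MMTV-LTR. SSM3 cells come from a mammary tumour of 129SvEv mice. Neither line was treated, and 3 biological replicates of each were sequenced from the 3′ ends of polyadenylated RNA. Each group is a single cell line, and its medium, serum and CO2 differed from those of the other, so origin, genotype and culture cannot be told apart.

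Most serpins inhibit by a suicide mechanism. The target protease cuts an exposed reactive loop, the serpin refolds around the cut, and the protease is trapped in a covalent complex. Members are sorted into clades by sequence. Clade A holds secreted plasma inhibitors such as alpha-1 antitrypsin, clade B holds mostly intracellular inhibitors that protect cells from their own or foreign proteases, clade E holds secreted inhibitors such as protease nexin-1, and some members such as Serpinh1 are chaperones without inhibitory activity. In mice, clades A and B are expanded into clusters of close copies.

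Total counts ranged from 5209740 to 5416305 in the J110 libraries and from 4200785 to 4792941 in the SSM3 libraries, and levels are given as CPM, a gene's share of the library's counts scaled to a fixed total, on TMM-scaled library sizes. A 3′ method reads each transcript near its end, so a CPM does not grow with transcript length. A count of 3, taken as the floor, was worth between 0.578 and 0.668 CPM, and folds against a line with no count are lower bounds set by 3 counts in each of its libraries. Among genes otherwise confined to the opposite line, 14 of 21 had stray counts in J110 replicate 3 and 17 of 18 in SSM3 replicate 2. Ncoa3, the gene of AIB1, had 110, 106 and 102 in J110 and 181, 199 and 186 in SSM3. Tags at the 3′ end need not lie in the AIB1 cDNA, so Ncoa3 does not check the labels, on which every direction rests. Of the lists of markers for other cell types, 6 of 6 leukocyte and 5 of 5 mast cell genes had at most 3 counts in every library. The fibroblast list summed to at most 1.98 CPM and the myoepithelial list to at most 9.15 CPM in any library, and the endothelial list to between 158 and 181 CPM in J110, nearly all of it Cdh5, and at most 0.425 CPM in SSM3. In bulk cultures, fewer cells that express a gene and less RNA per cell cannot be told apart. The epithelial markers summed to between 3061 and 3196 CPM in J110 and between 12820 and 14150 CPM in SSM3, with Epcam at 2, 1 and 7 counts in J110 and 2376, 2404 and 2412 in SSM3. The list did not move as one, since Krt18 was at 1430 ± 18.1 CPM in J110 against 970.0 ± 37.3 in SSM3 (SD, n = 3 each). The part of this difference in the serpin results was not tested.

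Of the 61 serpin genes, 21 had no count in any library and 17 more had at most 3 counts in every library. A further 9 exceeded 3 counts in some library but did not pass the filter on low counts, and 14 passed and entered the fit across 12284 genes. Clade A had 1 of its 24 genes passing, and clade B gave 9 of 26. Serpine2 passed, and so did Serpinc1 and Serpinh1, each alone in its clade. Serpind1, Serpinf1, Serpinf2 and Serping1, which are secreted, had at most 3 counts in every library, and Serpini1, neuroserpin, had 2, 9 and 3 counts in J110 and none in SSM3.

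Serpin transcripts were more abundant in J110. Summed over all members, the level was 1330, 1387 and 1380 CPM in the J110 libraries and 695, 678 and 700 CPM in the SSM3 libraries. The means were 1366 ± 31.3 and 691 ± 11.7 CPM (SD, n = 3 each), and the lines did not overlap. The family took 0.127% to 0.131% of all counts in J110 and 0.0726% to 0.0743% in SSM3. In J110, Serpinb6a made up 50.4% ± 0.538 of the serpin level and Serpinb9b 10.3% ± 1.01 (SD, n = 3 each). In SSM3, Serpinb6a made up 38.6% ± 0.374, Serpine2 17.4% ± 1.37, Serpina1b 17.2% ± 1.55 and Serpinb5 13.3% ± 0.685 (SD, n = 3 each). The lines thus shared their most abundant serpin and differed in the next ones. Clade B accounted for 77.7% ± 1.28 of the serpin level in J110 and 53.1% ± 0.740 in SSM3, and clade A for 0.113% ± 0.0635 and 17.3% ± 1.55 (SD, n = 3 each).

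**Figure D1:**
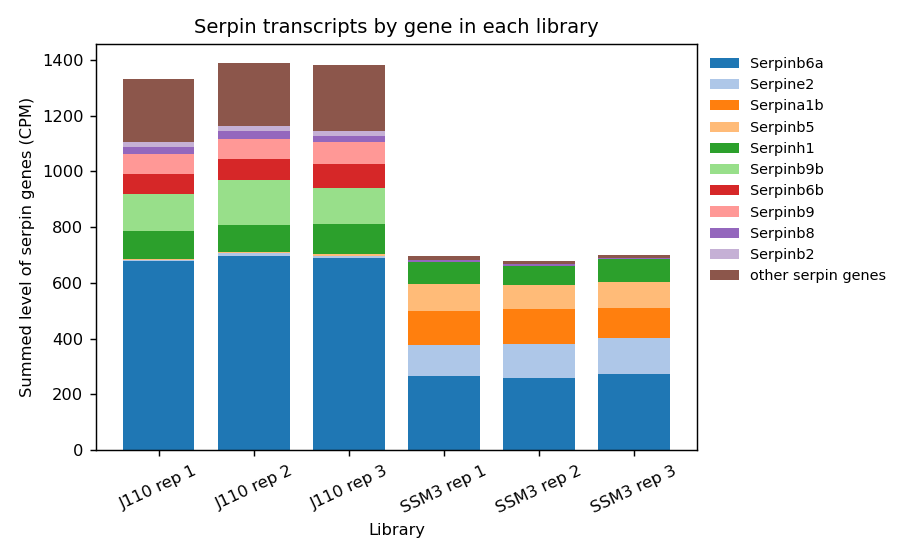
Summed level of serpin genes in CPM (vertical axis) in each of the 6 libraries (horizontal axis), with 10 genes as stacked colours and all other members pooled. Serpinb6a is the largest block in every library, and Serpine2, Serpina1b and Serpinb5 fill much of SSM3 where Serpinb9b, Serpinb6b and Serpinb9 stand in J110.

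Ordered by level on the CPM scale, the members reported here ran in J110 from Serpinb6a (688 ± 10.4) through Serpinb9b (141 ± 15.5) and Serpinh1 (101 ± 5.77) to Serpinb6b (78.2 ± 6.16) and Serpinb9 (74.7 ± 4.55), and the last pair differed by less than their SDs (n = 3 each). In SSM3 the order was Serpinb6a (266 ± 6.77), Serpine2 (120.4 ± 9.66), Serpina1b (119 ± 9.01), Serpinb5 (92.1 ± 5.60) and Serpinh1 (75.4 ± 7.66), and Serpine2 and Serpina1b differed by less than their SDs (n = 3 each). No other serpin reached 10 CPM in SSM3.

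**Figure D2:**
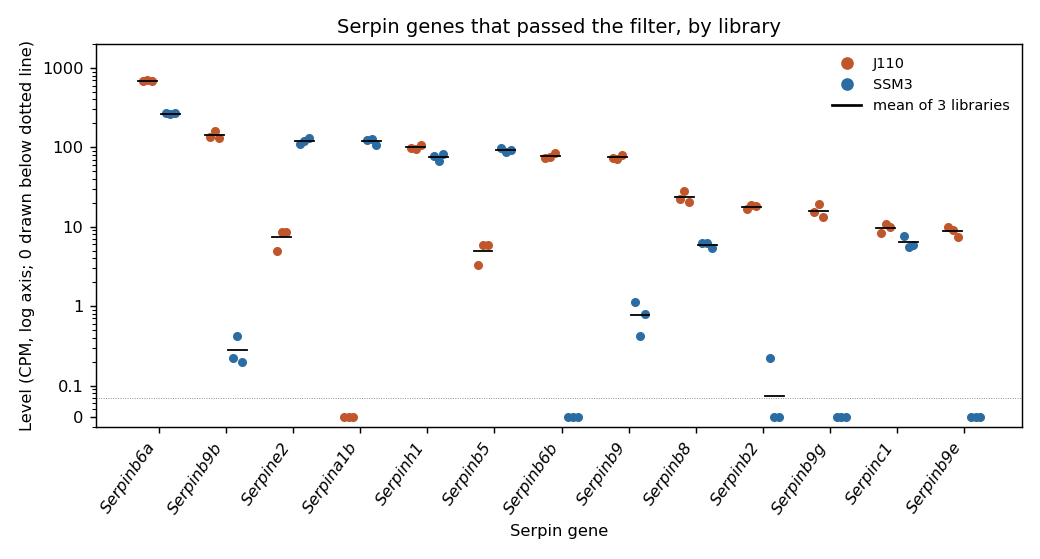
Level of serpin genes that passed the filter (horizontal axis) in CPM on a log axis (vertical axis), with 1 point a library, J110 and SSM3 in different colours, a black bar for the mean of 3 libraries, and values of 0 drawn below the dotted line. Points of the 2 lines are apart for each gene, with Serpinb6b at 0 in SSM3 and Serpina1b at 0 in J110.

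Of the 13 tested members other than Serpinb6b, 3 were higher and 10 lower in SSM3 at an adjusted p below 0.05 in edgeR's quasi-likelihood test, and for all 13 the libraries of the lines did not overlap. Among all genes tested, 77.9% passed this threshold, 38.6% higher and 39.2% lower in SSM3, and 79.6% did not overlap. Most genes differ between these lines, and since the family was chosen with this contrast known, nothing is read from the members' count. Members at or near 0 in a line, such as Serpina1b, Serpinb2, Serpinb9, Serpinb9b, Serpinb9e and Serpinb9g, passed the filter through the other line alone. That fixed their direction, so their p-values are no support for it, and they also enter the median. The median log2 fold change, SSM3 against J110, of the 13 members was -2.01, also with genes at 0 in a line set to their bound, beside -0.014 over all genes.

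**Figure D3:**
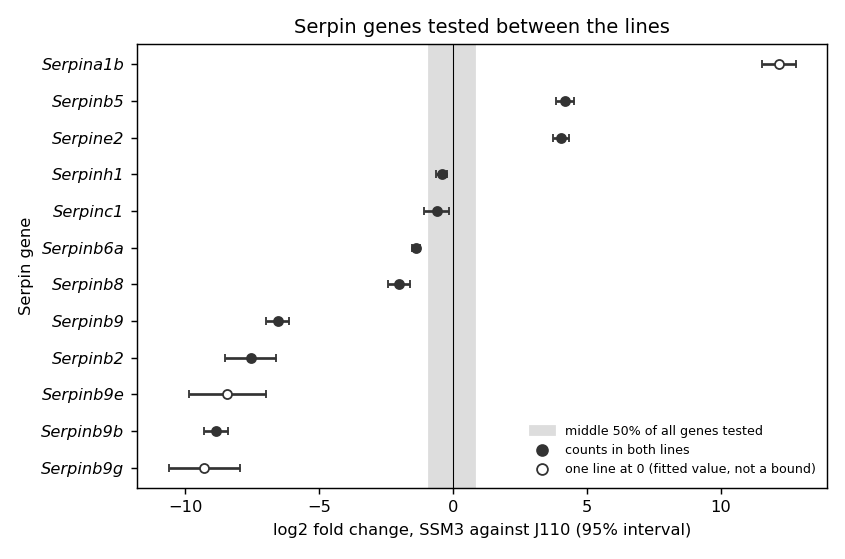
Fitted log2 fold change of SSM3 against J110 with its 95% interval (horizontal axis) for serpin genes other than Serpinb6b (vertical axis), with the grey band for the middle 50% of all genes tested. Open points are genes with no count in one line, whose fitted value is no bound, and Serpinb5, Serpine2 and Serpina1b lie to the right of 0.

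Clade B genes of chromosome 13 were counted in J110 and nearly absent from SSM3, apart from Serpinb6a. In this cluster, 15 clade B genes lie within 1160.7 kb of mm10. Without Serpinb6a, the other 14 genes had 1614, 1748 and 1547 counts in the J110 libraries and 9, 5 and 6 in the SSM3 libraries, or 326.6 ± 17.6 against 1.42 ± 0.510 CPM (SD, n = 3 each). They made up 23.9% of the serpin level in J110 and 0.205% in SSM3. Of them, 10 had counts in J110 and none in SSM3, Serpinb9 and Serpinb9b had few counts in SSM3, and Serpinb6e had none in any library. Serpinb6d had 0, 0 and 1 counts in J110 and 3, 1 and 1 in SSM3. The sums and the 10 genes include Serpinb6b, for which the family was singled out, with 380, 386 and 408 of the J110 counts. The cluster also spans 3 protein-coding genes of other families, of which 2 were tested. Ripk1, a kinase of cell death signalling, had a log2 fold change of -0.59 (adjusted p = 7.62e-04, edgeR's quasi-likelihood test), and Nqo2, a quinone reductase, one of -0.14 (adjusted p = 0.162, the same test). Both genes were still counted in every SSM3 library, but they share exons with Serpinb6a on the opposite strand, so their values are uncertain.

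**Figure D4:**
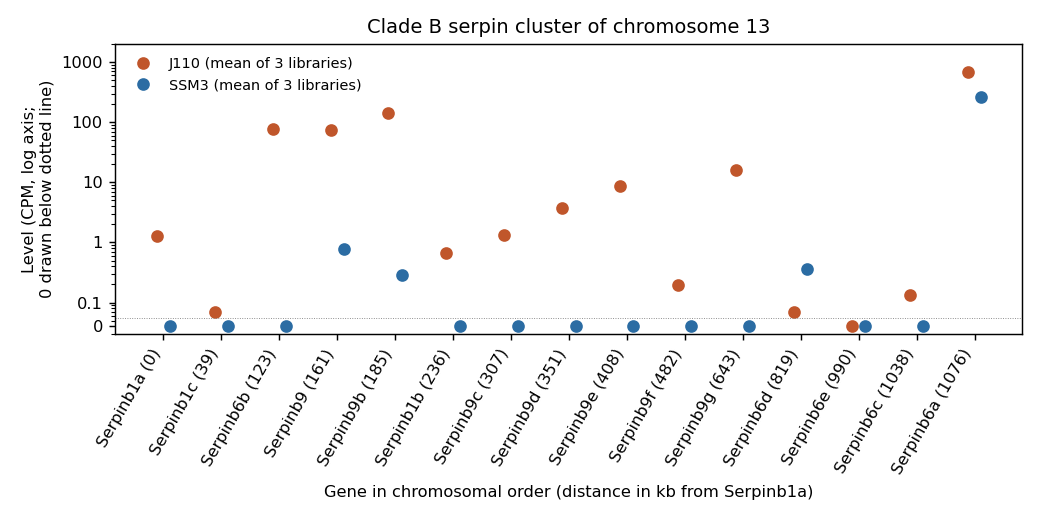
Mean level in CPM over 3 libraries on a log axis (vertical axis) of the 15 clade B genes of chromosome 13 in chromosomal order with their distance in kb from Serpinb1a (horizontal axis), J110 and SSM3 in different colours and values of 0 below the dotted line. Serpinb6a, at the far end of the cluster, is high in both lines, while Serpinb6b, Serpinb9, Serpinb9b, Serpinb9e and Serpinb9g are high in J110 only.

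Serpinb6b (ENSMUSG00000042842, chr13:32965209-32979067, forward strand, mm10) is a mouse paralogue of Serpinb6a. It had 380, 386 and 408 counts in the J110 libraries and 0, 0 and 0 in the SSM3 libraries. At 78.2 ± 6.16 CPM (SD, n = 3) in J110 it was at least 123-fold lower in SSM3. No 75-base stretch near its annotated 3′ ends occurred in another gene's exons, so in the reference reads of this length from there belong to it alone.

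Serpinb6a (chr13:33917918-34002794, reverse strand), a broadly expressed inhibitor of intracellular trypsin-like and cathepsin G-like proteases, had 3512, 3528 and 3297 counts in J110 and 1199, 1222 and 1372 in SSM3. Every SSM3 library lay below every J110 library, yet the gene stayed abundant in both lines. The log2 fold change was -1.37 (SE 0.065, adjusted p = 9.50e-12, edgeR's quasi-likelihood test), and the alternatives gave values between -1.40 and -1.19. It shares exons with Nqo2 and Ripk1 on the opposite strand. The strand setting of the counting is not stated, so its value and theirs are uncertain. Ppib and Snx22, another such pair, had 371, 352 and 349 against 369, 352 and 349 counts in J110. The same reads may thus be counted for both genes of a pair. Nqo2 had 332 to 347 counts in J110 and 279 to 306 in SSM3, and Ripk1 169 to 184 and 98 to 123, all below Serpinb6a.

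The windows around the start sites of Serpinb6a and Serpinb6b are shown because these paralogues stand at the extremes of the cluster, the one counted in both lines and the other in J110 only. Each runs 5′ to 3′ from 250 bases before to 50 after a RefSeq start site of GRCm38.p6, Serpinb6a at chr13:34002745-34003044 on the reverse strand (the more distal of its start sites) and Serpinb6b at chr13:32965011-32965310 on the forward strand. Capitals mark matches to the GC box GGGCGG and to the STAT half-site pair TTCNNNGAA on either strand.
Serpinb6a: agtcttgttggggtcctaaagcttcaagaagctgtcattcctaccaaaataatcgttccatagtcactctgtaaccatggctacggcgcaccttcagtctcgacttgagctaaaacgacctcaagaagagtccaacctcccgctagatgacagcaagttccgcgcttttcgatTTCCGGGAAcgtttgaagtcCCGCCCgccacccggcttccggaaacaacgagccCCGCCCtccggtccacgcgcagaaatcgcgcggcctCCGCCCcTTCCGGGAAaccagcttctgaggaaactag
Serpinb6b: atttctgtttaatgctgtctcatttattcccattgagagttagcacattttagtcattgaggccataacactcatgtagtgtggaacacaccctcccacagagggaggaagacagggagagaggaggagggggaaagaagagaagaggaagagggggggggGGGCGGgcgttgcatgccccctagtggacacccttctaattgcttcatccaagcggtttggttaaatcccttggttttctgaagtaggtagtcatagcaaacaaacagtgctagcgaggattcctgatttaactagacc
The Serpinb6a window held 3 GC boxes and 2 STAT matches and the Serpinb6b window 1 GC box and no STAT match. The other Serpinb6a window, at chr13:33936034-33936333, held a CCAAT match and no GC box or STAT match, so the contrast depends on the start site shown. A GC box occurred in 35.7% of all 32851 RefSeq windows of this length and the STAT letters in 8.30%. The windows aligned at 46.1% identity, so the paralogues have little in common before their start sites. A match is a run of letters and does not show that a factor binds.

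Serpinb9 (chr13:33003250-33017957) and its neighbour Serpinb9b (chr13:33027416-33041884) were also nearly confined to J110. Serpinb9, the mouse inhibitor of granzyme B, had 378, 361 and 383 counts in J110 and 5, 2 and 4 in SSM3. Its log2 fold change was -6.55 (SE 0.20, adjusted p = 3.79e-14, edgeR's quasi-likelihood test), and the J110 to SSM3 ratio was 96.5 (95% exact interval 53.7 to 194, counting error only). Serpinb9b, a close paralogue, had 690, 805 and 631 counts in J110 and 1, 2 and 1 in SSM3. Serpinb9b thus had a log2 fold change of -8.85 (SE 0.22, adjusted p = 2.11e-15, the same test), and the ratio was 503 (196 to 1847). No SSM3 library came near the lowest J110 library for either gene.

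The copies Serpinb9d, Serpinb9e, Serpinb9f and Serpinb9g together had 150, 176 and 108 counts in J110 and none in SSM3. Serpinb9g (chr13:33484790-33496004) had 79, 99 and 63 counts in J110, at least 25.2-fold above SSM3. Serpinb9e (chr13:33249612-33260850) had 51, 46 and 36 counts, at least 13.9-fold above SSM3. In all 3 J110 libraries Serpinb9g exceeded Serpinb9e, and both were lowest in replicate 3. Serpinb9d had 19, 29 and 9 counts and Serpinb9f 1, 2 and 0. These copies are so alike that reads may be split between them, since 96.0% of the 75-base stretches at the 3′ ends of Serpinb9f occur in another gene, 23.2% of those of Serpinb9e, 14.8% of those of Serpinb9g and 8.92% of those of Serpinb9d.

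Their likeness extends before the start sites. The windows of Serpinb9e (chr13:33249358-33249657) and Serpinb9g (chr13:33484540-33484839), both forward, are shown because the genes were counted in the same 3 libraries. Capitals mark bases not aligned to an identical base in the other window.
Serpinb9e: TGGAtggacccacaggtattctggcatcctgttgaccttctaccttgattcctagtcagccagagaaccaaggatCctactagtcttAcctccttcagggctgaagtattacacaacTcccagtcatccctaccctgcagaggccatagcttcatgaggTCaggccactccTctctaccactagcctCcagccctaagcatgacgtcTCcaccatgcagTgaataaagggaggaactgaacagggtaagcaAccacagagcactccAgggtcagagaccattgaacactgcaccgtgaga
Serpinb9g: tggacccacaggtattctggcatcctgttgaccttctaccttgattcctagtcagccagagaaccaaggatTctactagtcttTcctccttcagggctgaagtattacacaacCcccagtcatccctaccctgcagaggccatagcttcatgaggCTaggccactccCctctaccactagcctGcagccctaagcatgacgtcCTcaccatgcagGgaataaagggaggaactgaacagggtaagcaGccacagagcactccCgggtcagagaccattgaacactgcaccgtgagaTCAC
Over 304 aligned positions 284 were identical, or 93.4%, beside 59.6% between Serpinb9 and Serpinb9b. Neither window held any of the 6 motifs searched (TATA, AP-1, STAT, NF-kB, CCAAT and GC box letters).

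The chromosome 1 cluster of clade B behaved differently, with members on both sides. Its 11 genes within 749.3 kb had 222, 267 and 216 counts in J110 and 471, 443 and 488 in SSM3, and 3 of them passed the filter. Serpinb5 (chr1:106861173-106883348), maspin, a non-inhibitory serpin of mammary epithelium known as a tumour suppressor, had 17, 30 and 28 counts in J110 and 440, 409 and 459 in SSM3. Every SSM3 library exceeded every J110 library, and the log2 fold change was 4.20 (SE 0.15, adjusted p = 2.80e-13, edgeR's quasi-likelihood test). At the other end of the cluster, Serpinb2 and Serpinb8 were lower in SSM3.

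Serpinb2 (chr1:107511423-107535478), plasminogen activator inhibitor type 2, had 88, 94 and 88 counts in J110 and 1, 0 and 0 in SSM3. The log2 fold change was -7.55 (SE 0.45, adjusted p = 1.63e-10, edgeR's quasi-likelihood test) and, since its only SSM3 count fell in replicate 1, -9.48 without that library. The J110 to SSM3 ratio had a 95% exact interval from 45.5 to 10130. It shares exons with Serpinb10, which had 0, 1 and 0 counts in J110 and none in SSM3. Serpinb8 (chr1:107590006-107610484), an inhibitor of furin, had 117, 143 and 99 counts in J110 and 28, 29 and 27 in SSM3, a log2 fold change of -2.01 (SE 0.19, adjusted p = 4.95e-08, the same test). Of the other 8 genes, Serpinb11 had 2, 4 and 2 counts in SSM3 and none in J110, Serpinb12 had a single count in each line, and 6 had none.

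Clade A was represented by 1 gene. Serpina1b (chr12:103728156-103830373, reverse strand), a mouse copy of alpha-1 antitrypsin, the inhibitor of neutrophil elastase made mainly by liver, had 0, 0 and 0 counts in J110 and 548, 591 and 545 in SSM3. The bound on the excess in SSM3 was 198-fold. Its copies had few counts. Serpina1d had 4, 3 and 3 in SSM3, Serpina1a and Serpina1e 1 each in replicate 2, and Serpina1c none. Of the 75-base stretches at the 3′ ends of Serpina1b, 5.22% occur in Serpina1a, Serpina1c or Serpina1d, and the rest in Serpina1b alone. The reference is of C57BL/6J while SSM3 cells are of 129SvEv origin, and the part of strain differences between copies was not tested.

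Other liver genes were not uniformly present beside Serpina1b. Of the 4 hepatocyte markers, Alb had 0, 2 and 1 counts in J110 and none in SSM3 and Ttr had none in any library, while Apoa1 had 18, 12 and 13 counts and Fgb 1568, 2088 and 2218 in SSM3, against none and 0, 0 and 7 in J110. The list summed to between 353 and 446 CPM in SSM3 and at most 1.67 CPM in J110, nearly all of it Fgb. Of clade A, 13 of the 24 clade A genes had no count, and Serpina3n, an acute-phase inhibitor, had 6, 1 and 5 counts in J110 and none in SSM3.

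The windows of Serpina1b (chr12:103738140-103738439) and Serpina1c (chr12:103904901-103905200), both on the reverse strand of GRCm38.p6, are shown because the first gene was counted in every SSM3 library and the second in none. Capitals again mark bases not aligned to an identical base.
Serpina1b: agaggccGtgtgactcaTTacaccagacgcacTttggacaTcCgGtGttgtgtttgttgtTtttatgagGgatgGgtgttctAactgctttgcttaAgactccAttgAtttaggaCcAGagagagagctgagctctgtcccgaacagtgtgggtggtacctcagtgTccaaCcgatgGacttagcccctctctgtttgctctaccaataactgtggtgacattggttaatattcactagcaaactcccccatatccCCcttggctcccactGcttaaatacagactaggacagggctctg
Serpina1c: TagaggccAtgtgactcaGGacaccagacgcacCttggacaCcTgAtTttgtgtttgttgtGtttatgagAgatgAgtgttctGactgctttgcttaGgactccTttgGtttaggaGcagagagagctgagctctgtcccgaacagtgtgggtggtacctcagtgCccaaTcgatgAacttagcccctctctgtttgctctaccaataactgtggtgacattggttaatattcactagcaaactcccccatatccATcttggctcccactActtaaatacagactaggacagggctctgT
They agreed at 276 of 302 aligned positions, or 91.4%. The AP-1 letters TGANTCA and the CCAAT letters, the latter on both strands, stood in both windows.

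Of clade E, Serpine2 was higher in SSM3. Serpine2 (chr1:79794197-79861180, reverse strand), protease nexin-1, which inhibits thrombin and urokinase, had 26, 43 and 41 counts in J110 and 496, 570 and 652 in SSM3. That gave a log2 fold change of 4.04 (SE 0.14, adjusted p = 2.18e-13, edgeR's quasi-likelihood test). Every SSM3 library lay far above every J110 library. Serpine3, which shares exons with Ints6, had 3, 6 and 4 counts in J110 and 2, 4 and 1 in SSM3.

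Serpinh1 (chr7:99345376-99353239, reverse strand), the collagen chaperone of the endoplasmic reticulum, differed least among the serpins above 10 CPM. It had 515, 487 and 515 counts in J110 and 348, 315 and 411 in SSM3, or 101 ± 5.77 and 75.4 ± 7.66 CPM (SD, n = 3 each). Its log2 fold change was -0.42 (SE 0.094, 95% interval -0.62 to -0.22, adjusted p = 6.33e-04, edgeR's quasi-likelihood test). When only changes beyond 2-fold were tested its adjusted p was 1, and over the alternatives its log2 fold change ranged from -0.48 to -0.25. Serpinc1, antithrombin, named after its values were seen, had 43, 55 and 47 counts in J110 and 34, 26 and 30 in SSM3. Its log2 fold change was -0.61 (adjusted p = 0.0203, the same test), and under 8 of 18 alternatives, 1 of them a stricter threshold of 0.01, it no longer passed. Its exons share 2942 bases with Zbtb37 on the opposite strand, which had 58, 76 and 69 counts in J110 and 45, 37 and 41 in SSM3, so its value is uncertain.

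The proteases, receptors and folding partners that serpins act with were examined as 6 lists of 80 genes. Of these, 51 were tested, 22 were higher and 27 lower in SSM3 at an adjusted p below 0.05 (edgeR's quasi-likelihood test), 2 did not pass, and 23 had at most 3 counts in every library. Since 77.9% of all genes passed, these counts describe the lists and no more. The median log2 fold change was -0.37 over the lists, beside -0.014 over all genes.

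**Figure D5:**
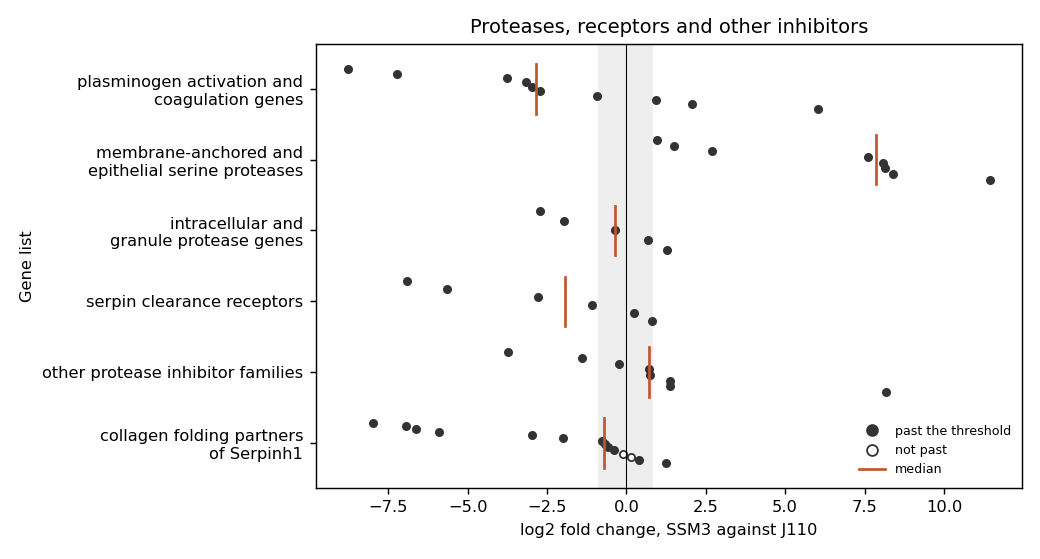
Fitted log2 fold change of SSM3 against J110 (horizontal axis) for the 51 tested genes of 6 lists (vertical axis), with filled points past the threshold, open points not past it, an orange bar for each median, and a grey band for the middle 50% of all genes. Fitted values of genes with no count in one line are no bounds, and the 8 membrane-anchored and epithelial proteases lie to the right of 0.

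Among genes of plasminogen activation and coagulation, 3 were higher and 7 lower of 10 tested, with a median log2 fold change of -2.85, or -2.65 with genes at 0 at their bound. F2r, the thrombin receptor, had 1950, 1778 and 1693 counts in J110 and 153, 129 and 94 in SSM3, a log2 fold change of -3.76. Procr, the receptor of protein C, had 685, 731 and 607 counts in J110 and 0, 4 and 0 in SSM3. For Procr the log2 fold change was -8.78, or -12.36 without SSM3 replicate 2, which held all of its SSM3 counts. Proc, protein C itself, had 2, 0 and 2 counts in J110 and 85, 101 and 85 in SSM3, a log2 fold change of 6.03. Plau, Plat and Plaur were named after their values were seen, so nothing about Serpinb2 is read from their direction. In the same list, F3 (log2 fold change 2.06) and F2rl1 (0.94) were higher in SSM3. Plau, urokinase, had 90, 111 and 95 counts in J110 and 17, 7 and 7 in SSM3. For Plau the log2 fold change was -3.16, or -3.75 without SSM3 replicate 1. Plat, tissue plasminogen activator, had 41, 48 and 47 counts in J110 and 4, 4 and 8 in SSM3, a log2 fold change of -2.98. Plaur, the urokinase receptor, had 350, 343 and 338 counts in J110 and 39, 43 and 67 in SSM3, a log2 fold change of -2.71. Plg, plasminogen itself, had no count in any library.

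Membrane-anchored and epithelial serine proteases were higher in SSM3 for 8 of 8 tested of 12 listed. Their median log2 fold change was 7.85, or 3.56 with genes at 0 at their bound. Those at or near 0 in J110, such as Tmprss2 and St14, passed the filter through SSM3 alone, which fixed their direction. Below the filter, Tmprss11e went the other way, with 10, 6 and 3 counts in J110 and 1, 1 and 1 in SSM3. Tmprss2 had 0, 0 and 1 counts in J110 and 1303, 1283 and 1096 in SSM3. The log2 fold change of Tmprss2 was 11.46, or 13.31 without J110 replicate 3. Prss23 was counted in both lines, with 135, 126 and 138 counts in J110 and 238, 213 and 292 in SSM3. St14, matriptase, named after its values were seen, had 0, 0 and 2 counts in J110 and 279, 221 and 254 in SSM3.

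Of the intracellular and granule proteases, 2 were higher and 3 lower of 5 tested, with a median log2 fold change of -0.37. Granzyme B and cathepsin G, targets of Serpinb9 and Serpinb6a, had no count for their genes Gzmb and Ctsg in any library. Ctsl had a log2 fold change of -0.37 and Ctsh, another lysosomal cathepsin, one of -2.73. Furin, the target of Serpinb8, had 652, 689 and 807 counts in J110 and 1528, 1414 and 1983 in SSM3, a log2 fold change of 1.27 (SE 0.11, adjusted p = 2.06e-08, edgeR's quasi-likelihood test), while Serpinb8 was lower there.

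Among receptors that clear serpin complexes, 2 were higher and 4 lower of 6 tested, with a median log2 fold change of -1.93. Lrp1, which takes up complexes of plasminogen activators with their serpins, had 648, 698 and 505 counts in J110 and 5, 6 and 3 in SSM3, a log2 fold change of -6.93 (SE 0.20, adjusted p = 1.57e-14, edgeR's quasi-likelihood test). Lrp1 passed the filter through J110 alone, so its p-value is no support for its direction. Sdc1, a heparan sulphate proteoglycan, had a log2 fold change of -2.77.

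Inhibitors of other families were higher for 5 and lower for 3 of 8 tested, with a median log2 fold change of 0.72. Spint1, a Kunitz inhibitor of matriptase, had 0, 4 and 3 counts in J110 and 655, 706 and 655 in SSM3. The log2 fold change of Spint1 was 8.18, or 7.58 without J110 replicate 1. Wfdc2 rose from 542 ± 23.4 to 1392 ± 75.05 CPM (SD, n = 3 each), Pebp1 fell by 0.25 on the log2 scale, and Cst6, a cystatin, fell by 3.74, or by 4.59 without SSM3 replicate 2. Collagen folding partners of Serpinh1 were higher for 2 and lower for 10 of 14 tested, with a median log2 fold change of -0.71. P4ha3, a prolyl hydroxylase subunit, had 39, 29 and 30 counts in J110 and none in SSM3, at least 10.3-fold lower, and Pdia3 had a log2 fold change of -0.76. P4hb had one of 0.14 (adjusted p = 0.0754, edgeR's quasi-likelihood test). Plod3 had one of 1.23, and shares exons with Znhit1 on the opposite strand, so its value is uncertain.

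Across the family, RefSeq gave start-site windows for 52 of the 61 members, 61 windows in all. On either strand, the TATA box TATAAA stood in 29.5% of them and in 13.6% of all 32851 windows, AP-1 letters TGANTCA in 18.0% and 7.81%, STAT letters TTCNNNGAA in 18.0% and 8.30%, the NF-kB letters GGGNNTTCC in 6.56% and 5.82%, CCAAT in 34.4% and 37.4%, and the GC box GGGCGG in 13.1% and 35.7%. Windows of 1 gene and of close copies share sequence, so these shares are a description. Among the 15 windows of tested members, 6 held a GC box, 5 AP-1 letters and 2 a TATA box. The AP-1 letters stood in windows of Serpinb2, Serpinb5, Serpinb8 and Serpina1b, genes on both sides of the comparison, and Serpine2 held 6 GC boxes.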

How the data were processed

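Libraries of 3 J110 and 3 SSM3 cultures were made with a 3′ kit. The authors trimmed the reads (cutadapt 2.1), mapped them to mm10 (HISAT2 2.0.4), counted them per gene (featureCounts, Subread 2.0.0) and deposited raw counts without normalisation. The strand setting and the treatment of reads in overlapping genes are not given in the sources used here. Symbols and coordinates came from the GENCODE annotation of GRCm38, which matched 99.7% of identifiers, and 7 Serpin symbols that are not protein coding were left out.

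Low counts were removed with filterByExpr, TMM factors were applied, and the quasi-likelihood test of edgeR was run (edgeR 4.0.16, limma 3.58.1, R 4.3.3), with p-values adjusted over all 12284 genes tested (Benjamini-Hochberg, threshold 0.05). Depth was 4200785 to 5416305 counts a library. Exact intervals of ratios and floors cover counting error only, while intervals of log2 fold changes come from the fit and include the spread of replicates. Members, gene lists and marker lists were chosen with earlier results of these data known. Serpins were named at 10 CPM or more in a line, or at 10 counts or more in every library of a line against at most 3 in the other. Listed partners were named as the 2 most abundant and the most changed in each direction. Others were named after their values were seen. Some items are not reported here, though counts over all members and lists include them. Windows around start sites are RefSeq's (GRCm38.p6), aligned with Biopython 1.88. Alternatives covered DESeq2 1.42.0, limma-voom, scalings, filters, thresholds, the replicate block and leaving out libraries. The test was tried on simulated counts.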

Additional observations from a re-analysis of the deposited data

How the results depend on the processing

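The counts of serpin genes higher (3) and lower (10) in SSM3 stayed within 1.5 times under the other tools, scalings and thresholds, except under the filters on low counts. With at least 1 count in any library, 39 members other than Serpinb6b were tested and 5 were higher and 16 lower. With at least 10 counts in every library, which removes genes absent from a line by construction, 6 members were tested and 4 were lower, and 16 listed partner genes were lower. Testing only changes beyond 2-fold (glmTreat) left 4272 of all genes and 14 higher partner genes. Leaving out each library in turn gave 3 to 3 higher and 9 to 11 lower serpin genes, 9275 to 9572 of all genes, 20 to 22 higher and 27 to 28 lower partner genes. Without both J110 replicate 3 and SSM3 replicate 2, an alternative chosen after seeing the data, the serpin counts were 3 and 10.

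Of 227 values of the 13 serpin genes over 18 alternatives, 218 kept their direction and side of the threshold, 9 no longer passed and 0 reversed. Those 9 were 8 values of Serpinc1 and that of Serpinh1 under glmTreat. With library size only in place of TMM, the all-gene median log2 fold change moved from -0.014 to 0.16.

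Same-numbered replicates deviated together with correlations of 0.0118, 0.0155 and 0.0268. These were small, yet each library correlated best with its own number, and whether such replicates were handled together was not tested. With the replicate block, 3 serpin genes were higher and 10 lower, 9481 of all genes passed, and 22 partner genes were higher and 27 lower.

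Genes at or under the floor could not be compared at this depth.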
